A study of Mus musculus with 48 samples.

Results

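Whole striatum of R6/2 mice was set against healthy striatum by RNA sequencing of input libraries, which hold the RNA of the cleared tissue lysate. The comparison used 12 of the 48 libraries of the series. Tested were 4 libraries of R6/2 mice that carried a control cargo, against 4 of vehicle mice and, apart, 4 of wild-type littermates from a line with a SAPAP3 knockout. R6/2 mice carry the first exon of human HTT with an expanded CAG repeat as a transgene and are used as a model of Huntington's disease. The labels state neither what the control cargo was, nor the repeat length, nor any age beyond adult mice, and they give the strain of all groups as C57. Per the labels, vehicle was microinjected into the striatum. In all 12 mice, as in the whole series, an adeno-associated virus had been given 3 weeks earlier to express Rpl22-HA, a tagged ribosomal protein, in striatal astrocytes, so no library came from an untouched brain. The treatment text that the samples share describes other perturbations than these, and wild-type replicate 3, whose title could stand for a pool of 2 mice, was counted as 1 sample. The tissue label reads striatal astrocytes, but the input libraries held neuronal, glial and vascular transcripts.

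The titles of the R6/2, vehicle and wild-type libraries begin with 3 separate numbers, whose meaning the labels do not state. They are taken here as 3 experiments, so genotype and experiment coincide and cannot be told apart in either comparison. Genes were therefore kept only if they differed from both controls well beyond the gap between the controls. A kept gene had an adjusted p under 0.05 against vehicle and against wild type with the same sign, and a log2 fold change of at least 0.5 in both. Both fold changes were also at least 2 times the size of the log2 fold change between wild type and vehicle, and all 4 R6/2 libraries lay above, or all below, all 8 control libraries. In a kept gene, a lack of overlap with the controls and fold changes of like size against both are therefore set by this rule. They are no separate evidence. The table lists 24060 genes. Tested were 15751, and 1727 were kept (11%), of which 1228 were lower (7.8%) and 499 higher (3.17%) in R6/2 striatum. Values below are CPM, read counts scaled to library depth with factors from the trimmed mean of M values (TMM), and fold changes are log2 R6/2 over control with their standard error (SE).

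The striatum is built mainly of medium spiny neurons, GABAergic cells that receive dopamine and cortical input. Indirect-pathway neurons carry the dopamine D2 receptor and enkephalin, and direct-pathway neurons carry the D1 receptor, substance P and dynorphin. In both, cAMP produced by adenylyl cyclase 5 drives protein kinase A, with phosphodiesterase 10A removing cAMP and DARPP-32 (Ppp1r1b) acting as a kinase-regulated inhibitor of protein phosphatase 1. Loss of transcripts of these neurons is a known feature of Huntington's disease and of its mouse models. In a bulk lysate, fewer cells of a type and less RNA per cell cannot be told apart.

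The 4 marker genes of medium spiny neurons were lower in R6/2 striatum than in each control, and the start regions of those with an entry are shown because these genes moved together. RefSeq promoter windows (GRCm38.p6, 250 bases before to 50 after the start) were at hand for 2 of the 4 markers. Pde10a has 2 starts on the plus strand, at chr17:8801495-8801794 and chr17:8849735-8850034, and Drd2 1 on the plus strand, at chr9:49340153-49340452. Penk and Ppp1r1b had no entry in that table. Capitals mark GGGCGG, the GC box, or its reverse complement CCGCCC.
Pde10a, upstream start: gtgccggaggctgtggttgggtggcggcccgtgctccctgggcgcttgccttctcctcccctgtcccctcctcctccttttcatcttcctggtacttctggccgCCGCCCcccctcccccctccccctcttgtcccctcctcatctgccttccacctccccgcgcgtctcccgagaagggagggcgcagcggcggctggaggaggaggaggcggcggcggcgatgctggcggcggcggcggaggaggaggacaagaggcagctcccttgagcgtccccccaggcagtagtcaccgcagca
Pde10a, downstream start: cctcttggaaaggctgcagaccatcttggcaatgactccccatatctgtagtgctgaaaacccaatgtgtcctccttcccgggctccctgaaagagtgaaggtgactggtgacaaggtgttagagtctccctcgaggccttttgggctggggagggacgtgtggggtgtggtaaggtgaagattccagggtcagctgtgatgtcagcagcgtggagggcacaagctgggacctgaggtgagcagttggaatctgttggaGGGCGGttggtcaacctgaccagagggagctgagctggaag
Drd2: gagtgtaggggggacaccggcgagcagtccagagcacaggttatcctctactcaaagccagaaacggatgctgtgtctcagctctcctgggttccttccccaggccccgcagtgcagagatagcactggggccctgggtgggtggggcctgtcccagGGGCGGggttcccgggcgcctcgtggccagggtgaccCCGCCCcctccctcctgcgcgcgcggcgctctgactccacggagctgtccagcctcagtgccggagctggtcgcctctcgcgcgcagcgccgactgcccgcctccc
The GC box occurred 1 time in each Pde10a window and 2 times in the Drd2 window, and 35.7% of all 32851 promoter windows hold it. The cAMP response element TGACGTCA (in 1.79% of windows) and its half-site TGACG (in 20.8%, the full element included), searched on both strands, were in none of the 3 windows. A match or its absence describes these letters only.

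Libraries held 21.9 M to 28.0 M counted reads in R6/2, 33.8 M to 39.0 M in vehicle and 23.4 M to 31.9 M in wild-type mice, and no pair of replicates agreed within sampling noise. Against vehicle, 4733 genes were lower (30% of those tested) and 4690 higher (29.8%) in R6/2 striatum. Against wild type, 4403 were lower (28%) and 4312 higher (27.4%). Lower than both were 2905 genes (18.4%) and higher than both 2723 (17.3%). The healthy groups differed from each other in 7297 genes (46.3%). With vehicle as the odd group the same rule kept 612 genes (3.89%), and with wild type as the odd group 311 (1.97%). There the gap in the rule is one between R6/2 and a control. Its median size over all tested genes was 0.267 against wild type and 0.313 against vehicle, while between the controls it was 0.237. These counts therefore faced a wider gap, and 612 and 311 are no even yardstick for the 1727 of R6/2. Wild-type replicates 2 to 4 were rich in RNA of cortical excitatory neurons. Slc17a7, the vesicular glutamate transporter of these cells, was at 20.9, 24.3, 38.8 and 33.6 CPM in R6/2 mice and at 35.3, 39.4, 25.1 and 31.7 in vehicle mice, but at 59.6, 577, 457 and 507 in wild-type mice. The same 3 wild-type libraries were the lower ones in most medium spiny neuron genes. Results that rest on them are therefore also given with wild-type replicate 1 as the lone wild-type library, an alternative chosen after seeing the data that takes its spread from the other groups. Xist was at 191 CPM in wild-type replicate 4 and at most 0.225 in the other 11 libraries, so this control group mixes the sexes.

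The genotype label was checked with Gm12695, a gene model on chromosome 4 (96723581 to 96786830, GRCm38.p6) in which the R6/2 transgene has been reported to sit. It was at 5.44, 5.11, 5.23 and 5.84 CPM in R6/2 mice, at 0.0281 to 0.157 in vehicle mice and at 0 to 0.15 in wild-type mice. All 4 R6/2 libraries carried it and all 8 controls were near 0. Mouse Htt, the gene whose human counterpart is the transgene, was at 411, 391, 385 and 402 CPM in R6/2 mice, at 257 to 293 in vehicle mice and at 357 to 423 in wild-type mice. It was higher than in vehicle (0.53 ± 0.061, adjusted p = 8.22e-06), while the R6/2 and wild-type groups overlapped (0.01 ± 0.061, adjusted p = 0.891). Both genes were singled out after their values were seen.

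**Figure D1:**
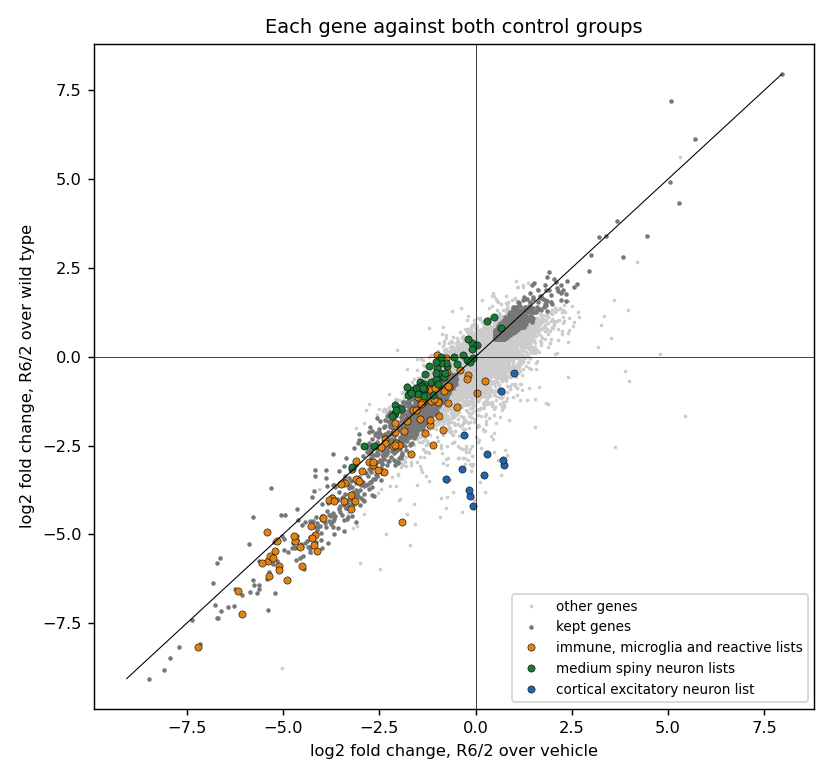
Log2 fold change of each tested gene in R6/2 over vehicle (x axis) and over wild type (y axis), with a line where both are equal. Kept genes lie near the line because the rule asks for it. Many genes of the immune, microglial and reactive astrocyte lists lie low along it. The medium spiny neuron lists lie on the lower side of 0 mostly above the line. The cortical excitatory neuron list lies far below the line, since wild-type replicates 2 to 4 were rich in it.

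Pde10a, which degrades cAMP and cGMP in medium spiny neurons, was at 772, 657, 759 and 837 CPM in R6/2 mice, at 2930, 2860, 2890 and 2810 in vehicle mice and at 2890, 1750, 1970 and 1830 in wild-type mice. Penk, the enkephalin precursor, was at 326, 320, 312 and 339 CPM in R6/2 mice, at 1340, 1260, 1640 and 1570 in vehicle mice and at 1520, 733, 994 and 886 in wild-type mice. No R6/2 library came near a control library in either gene. Pde10a fell by 1.93 ± 0.14 against vehicle (adjusted p = 1.63e-07) and by 1.48 ± 0.14 against wild type (2.7e-06). Penk fell by 2.16 ± 0.18 (5.48e-07) and 1.67 ± 0.17 (7.72e-06). Both were kept, although Penk was no longer kept without wild-type replicate 1.

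Drd2, the dopamine D2 receptor, was at 46.3, 42.3, 45.1 and 47.1 CPM in R6/2 mice, at 140, 140, 153 and 153 in vehicle mice and at 120, 63.9, 81.2 and 78.7 in wild-type mice. Ppp1r1b was at 439, 392, 423 and 559 CPM in R6/2 mice, at 1450, 1350, 1530 and 1460 in vehicle mice and at 1330, 719, 828 and 771 in wild-type mice. Their R6/2 libraries were below all controls, and both genes passed against each control. Drd2 was at -1.69 ± 0.14 against vehicle (adjusted p = 5.97e-07) and -0.92 ± 0.14 against wild type (0.00012), and Ppp1r1b at -1.67 ± 0.17 (2.98e-06) and -1.01 ± 0.17 (0.000236). Neither was kept, because wild type was itself lower than vehicle by 0.77 for Drd2 and 0.67 for Ppp1r1b. With wild-type replicate 1 as the lone wild-type library both were kept, at -1.40 for Drd2 and -1.55 for Ppp1r1b against it.

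**Figure D2:**
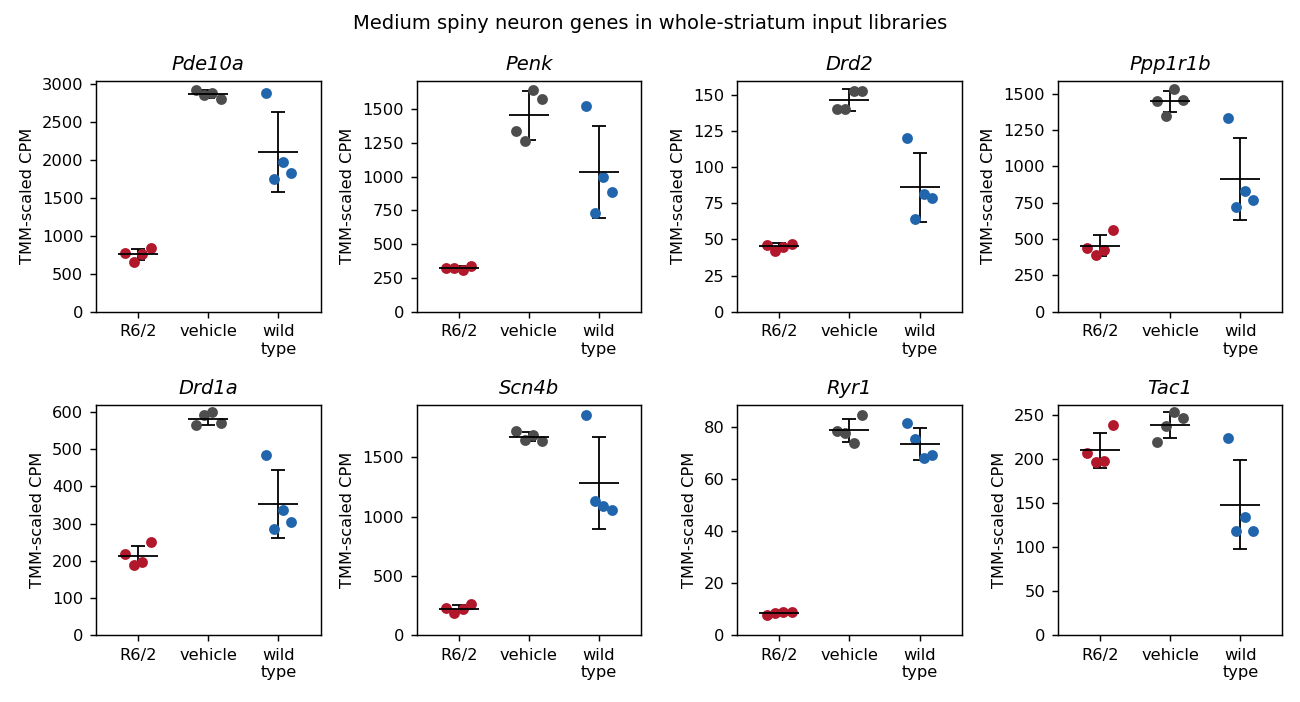
TMM-scaled CPM of 8 medium spiny neuron genes, with R6/2 left, vehicle in the middle and wild type right (points are libraries, bars mean and SD, n = 4 each). R6/2 libraries lie below all controls in 7 of the genes, Tac1 overlaps with both controls, and wild-type replicate 1 is the highest wild-type library throughout.

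Of 34 genes shared by medium spiny neurons, 9 were kept as lower (7.8% of all genes were) and none as higher. Ryr1, an intracellular calcium release channel, had the largest of these falls, at 7.79, 8.71, 8.91 and 8.96 CPM in R6/2 mice, 78.8, 77.8, 74.1 and 84.9 in vehicle mice and 81.8, 75.5, 68.1 and 69.6 in wild-type mice. Scn4b, a sodium channel beta subunit, was at 228, 186, 225 and 266 CPM in R6/2 mice, 1720, 1650, 1690 and 1640 in vehicle mice and 1860, 1130, 1090 and 1060 in wild-type mice. These are log2 fold changes of -3.20 ± 0.075 and -3.10 ± 0.075 for Ryr1 and of -2.89 ± 0.17 and -2.50 ± 0.17 for Scn4b. The R6/2 libraries of each gene were close together and far under every control. The cannabinoid receptor gene Cnr1 averaged 190 ± 18.7 CPM in R6/2 mice, 810 ± 42.3 in vehicle mice and 575 ± 133 in wild-type mice (SD, n = 4 each). Rgs4, which speeds the shut-off of G proteins, averaged 276 ± 23.7, against 1160 ± 78.4 in vehicle and 773 ± 96 in wild-type mice. The remaining kept genes were Pde10a, Adcy5 (-1.33 and -0.92), the inositol trisphosphate kinase Itpka (-1.11 and -1.09), the phosphatase regulator Ppp1r16b (-0.98 and -0.76) and the postsynaptic scaffold Dlgap3 (-0.82 and -0.57). Adcy5 and Dlgap3 were not kept without wild-type replicate 1, with library totals in place of TMM or with FPKM, Adcy5 not with voom either, and Dlgap3 not without vehicle replicate 2.

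The list fell more widely than the kept count shows. Against vehicle 30 of the 34 genes were lower, with a median of -1.07, against 30% and a median of 0.001 over all genes. Against wild type 21 were lower and 1 higher (28% and 27.4% of all genes were), with a median of -0.53. Rasgrp2, a Rap exchange factor (-2.10 and -1.36), the cAMP-regulated phosphoprotein gene Arpp21 (-1.53 and -0.89), Rgs9 (-1.37 and -0.89), Pde1b (-1.33 and -0.76) and the potassium channel partner Kcnip2 (-1.35 and -0.84) passed against both controls and were not kept. With wild-type replicate 1 as the lone wild-type library, 24 of the 34 were kept as lower. The fall was not uniform. Gad1, which makes GABA, was at 527, 513, 550 and 659 CPM in R6/2 mice, 615 to 686 in vehicle mice and 559 to 661 in wild-type mice, with groups that overlapped. Gad1 passed as lower against vehicle by a small amount (-0.22) and was not called against wild type (-0.09). The transcription factor Foxp2 was at 134 to 151 CPM in R6/2 mice, 143 to 163 in vehicle mice and 90 to 129 in wild-type mice. Foxp1 (-0.48 and -0.19), Bcl11b (-0.73 and -0.25) and Meis2 (-0.90 and -0.19) passed against vehicle only. Against wild-type replicate 1 alone these were at -0.46, -0.65 and -0.53, each with an adjusted p under 0.05.

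Of 8 indirect-pathway genes 7 were lower than both controls, against 18.4% of all genes, with medians of -1.72 against vehicle and -1 against wild type. Kept were Penk, the delta opioid receptor gene Oprd1 and Upb1, which encodes beta-ureidopropionase. Oprd1 was at 18.9, 21.1, 21.2 and 23.6 CPM in R6/2 mice, 49.4 to 57.8 in vehicle mice and 43.1 to 47.5 in wild-type mice, with no overlap (-1.35 ± 0.069 and -1.10 ± 0.069). Upb1 was low throughout, at 0.505 to 0.803 CPM in R6/2 mice (65 reads in all), 3.66 to 4.20 in vehicle and 3.05 to 4.12 in wild-type mice. The adenosine A2a receptor gene Adora2a stood at 108, 112, 109 and 110 CPM in R6/2 mice, 357 to 379 in vehicle mice and 370, 177, 192 and 185 in wild-type mice. It was not kept with all libraries and was kept against wild-type replicate 1 alone, as were the receptors Gpr6 (-1.78 and -0.86 with all libraries) and Gpr52 (-1.48 and -0.85).

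Direct-pathway genes did not move as a block. Of 9 genes, 3 were lower and 3 higher than both controls (18.4% and 17.3% of all genes were), with medians of -0.34 against vehicle and 0.06 against wild type. Set against wild-type replicate 1 alone, 4 were kept as lower and 1 as higher, with a median of -0.09. The D1 receptor gene, Drd1a in the table, was at 218, 190, 198 and 251 CPM in R6/2 mice, 566 to 599 in vehicle mice and 285 to 485 in wild-type mice (-1.44 ± 0.14 and -0.72 ± 0.14, not kept). The muscarinic M4 receptor gene Chrm4 fell (-1.49 and -1.04, kept, but not without wild-type replicate 1, with library totals or with FPKM), and Pdyn, the dynorphin precursor, was lower (-1.04 and -0.64, not kept). Against wild-type replicate 1 alone Drd1a (-1.18) and Pdyn (-1.17) were kept. Tac1, the substance P precursor, was at 207, 196, 197 and 238 CPM in R6/2 mice, 219 to 253 in vehicle mice and 118 to 223 in wild-type mice, and its R6/2 libraries overlapped with both. Tac1 was not called against vehicle (-0.19, adjusted p = 0.344) and passed as higher against wild type (0.50, adjusted p = 0.0206), but was at -0.09 against wild-type replicate 1 alone (adjusted p = 0.509). Eya1, a transcription cofactor, was at 18.4, 15, 18.6 and 19.8 CPM in R6/2 mice, 11.2 to 11.8 in vehicle mice and 8.13 to 11.7 in wild-type mice, and was kept as higher (0.65 ± 0.11 and 0.82 ± 0.11). Isl1 (0.49 and 1.13) and Ebf1 (0.30 and 1.00) were above all controls and passed against both, without being kept.

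Striatal interneurons are a small population that releases acetylcholine, somatostatin, neuropeptide Y or GABA. Of 14 of their genes 12 passed as lower against both controls, against 18.4% of all genes, and 3 were kept as lower, against 7.8% of all genes. Sst, the somatostatin gene, was at 34.7, 35.4, 30.6 and 37.8 CPM in R6/2 mice, 66.7 to 74.2 in vehicle mice and 56.3 to 78.8 in wild-type mice (-1.03 ± 0.094 and -1.02 ± 0.095). Npy, which is made by the same cells, was at 25.9 to 30.6 CPM in R6/2 mice, 65.8 to 85.8 in vehicle mice and 49.9 to 64.3 in wild-type mice (-1.39 and -1.04). Both genes were below all controls, though Npy was not kept against wild-type replicate 1 alone. Pthlh was at 0.634 to 1.25 CPM in R6/2 mice, 5.89 to 7.40 in vehicle mice and 3.37 to 5.07 in wild-type mice (-2.75 and -1.98). Chat, which makes acetylcholine, was lower than both (-1.59 and -1.05) and not kept. With wild-type replicate 1 as the lone wild-type library 10 interneuron genes were kept, Chat among them. Of the 12 pan-neuronal genes 3 were kept as lower (7.8% of all genes were), and 6 were lower than both controls (18.4% of all genes were). Against vehicle 2 were higher, Map2 (0.35) and Syp (0.39), named here after their values were seen. The neurofilament gene Nefm had the largest kept fall, at 34.3 ± 3.14 CPM in R6/2 mice, 91.7 ± 5.36 in vehicle mice and 88.3 ± 10 in wild-type mice (SD, n = 4 each).

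Of 20 ion channel genes of striatal neurons 6 were kept as lower (7.8% of all genes were), Ryr1 and Scn4b among them. The list had medians of -0.73 against vehicle, -0.56 against wild type and -0.62 against wild-type replicate 1 alone. Itpr1, the inositol trisphosphate receptor, was at 1260, 1110, 1270 and 1240 CPM in R6/2 mice, 2310 to 2410 in vehicle mice and 2210 to 2590 in wild-type mice (-0.95 ± 0.064 and -0.94 ± 0.064). The M-current channel gene Kcnq5 was at -0.70 and -0.61 and was kept, but not with library totals or FPKM. Of 20 opioid, cannabinoid and neuropeptide signalling genes 10 were kept as lower and 1 as higher (7.8% and 3.17% of all genes were). Crh, corticotropin-releasing hormone, was nearly gone, at 0.257, 0.127, 0.268 and 0.294 CPM in R6/2 mice (25 reads), 2.54 to 3.69 in vehicle mice and 2.51 to 3.51 in wild-type mice (-3.69 ± 0.25 and -3.61 ± 0.25). The serotonin receptor gene Htr2a was at 12 to 16.4 CPM in R6/2 mice, 36.3 to 41.4 in vehicle mice and 32.9 to 40.4 in wild-type mice (-1.54 and -1.49).

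Activity-induced genes, which neurons transcribe within minutes of stimulation, were kept as lower in 10 of 20 cases and in none as higher (7.8% and 3.17% of all genes were). Egr1 was at 32.3, 32.6, 34.5 and 32.3 CPM in R6/2 mice, 90.5 to 118 in vehicle mice and 117 to 139 in wild-type mice (-1.63 ± 0.08 and -2 ± 0.081). Egr2 was at 0.77 to 1.31 CPM in R6/2 mice, 11.4 to 27.0 in vehicle mice and 7.70 to 13.9 in wild-type mice. The phosphatase gene Dusp6 was at 17.6 to 27.6 CPM in R6/2 mice, 62.2 to 83.3 in vehicle mice and 61.3 to 69.6 in wild-type mice. These are kept genes, so the rule itself required that no library crossed between R6/2 and the controls. Arc, the cytoskeletal protein of active synapses (-1.65 and -1.74), and the nuclear receptor Nr4a1 (-1.86 and -1.93) were kept too.

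Of 22 cholesterol synthesis genes 14 were lower than both controls (18.4% of all genes were) and none higher, and 7 were kept as lower (7.8% of all genes were). Against vehicle 4 members were higher, Dhcr7 (0.23), Lss (0.47), Hsd17b7 (0.26) and Tm7sf2 (0.65), named here after their values were seen. Msmo1 was at 38.9 to 46.0 CPM in R6/2 mice, 87.8 to 102 in vehicle mice and 81.0 to 93.6 in wild-type mice (-1.18 ± 0.07 and -1.07 ± 0.07). Insig1, which holds the sterol sensor in the endoplasmic reticulum, was at 27.2 to 34.2 CPM in R6/2 mice, 67.9 to 77.0 in vehicle mice and 66.5 to 103 in wild-type mice (-1.21 and -1.44). The enzymes Cyp51 (-0.97 and -0.95), Fdft1 (-0.83 and -0.91) and Hmgcs1 (-0.82 and -1.11) were kept, Hmgcs1 only while wild-type replicate 1 was not left out or taken alone. In other protein-quality and damage lists few genes were kept as lower, where the share of all genes was 7.8%. Of 18 chaperones the small heat shock protein Cryab was kept (-0.75 and -0.55, not kept with library totals, with FPKM or without R6/2 replicate 4). Of 15 p53 response genes Gadd45a (-0.96 and -1.24) and 1 more were kept. These counts are too small to set apart from that share.

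**Figure D3:**
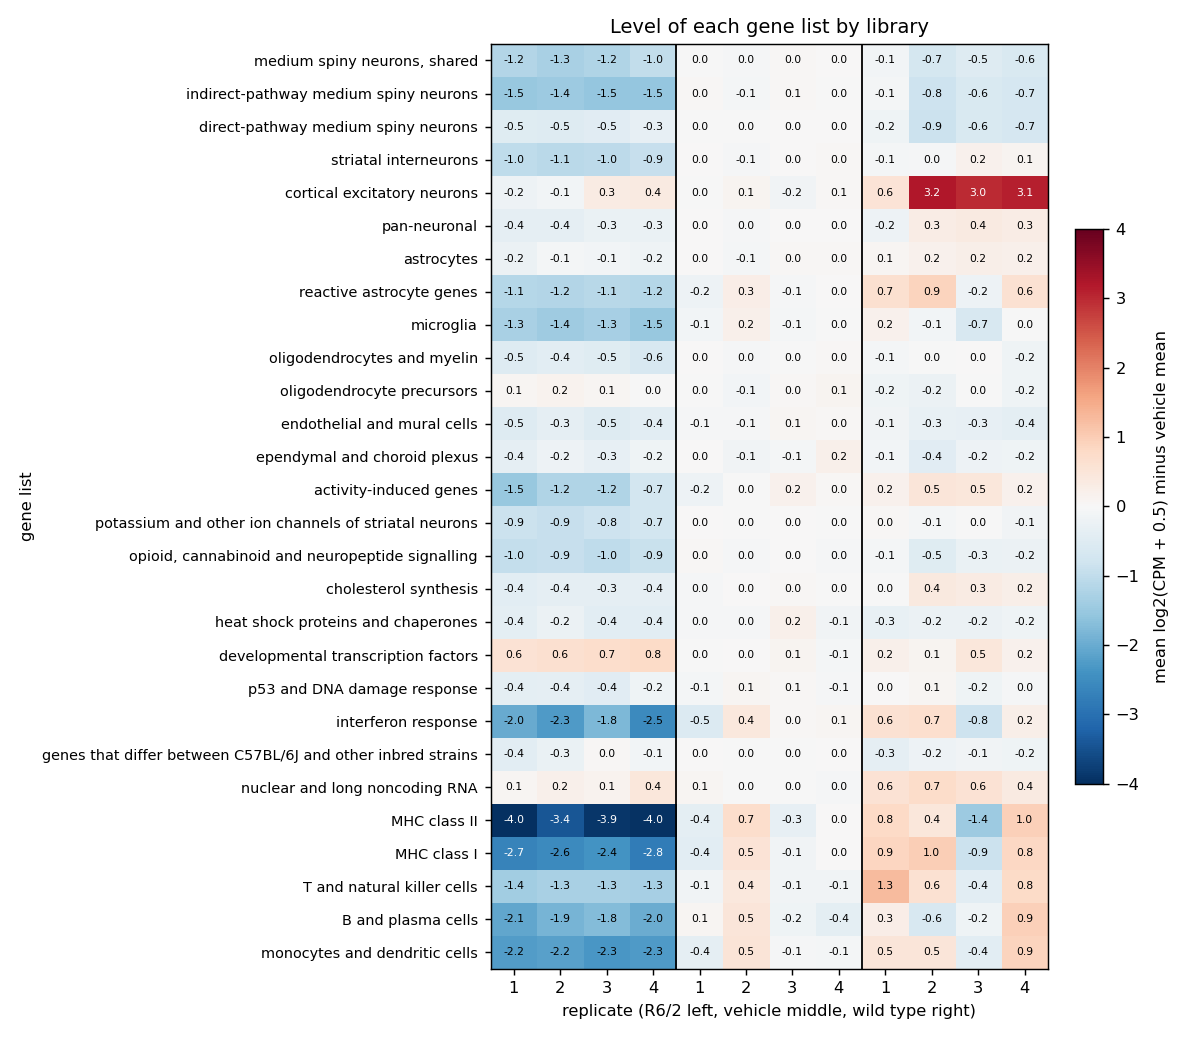
Mean log2(CPM + 0.5) of each gene list in each library minus its mean in vehicle, with R6/2 left, vehicle in the middle and wild type right. The shared and indirect-pathway medium spiny neuron, interneuron, activity-induced and immune lists are lower in all 4 R6/2 libraries than in the controls, the direct-pathway list is above wild-type replicates 2 to 4 there, and the cortical list is about 3 log2 units up in wild-type replicates 2 to 4.

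Glial genes were lower in part. Of all genes, 7.8% were kept as lower, 18.4% were lower than both controls and 17.3% higher than both. Each count below is to be set beside these shares. Of 22 astrocyte genes 5 were kept as lower, and 8 were lower and 1 higher than both controls. The higher one was the calcium-binding protein gene S100b (0.48 and 0.65), and against vehicle alone 6 were higher, among them the potassium channel gene Kcnj10 (1.28) and the sodium pump subunit gene Atp1b2 (0.90, but -0.82 against wild type), all named after their values were seen. Glul, glutamine synthetase, was at 815, 965, 910 and 934 CPM in R6/2 mice, 1380 to 1550 in vehicle mice and 1260 to 1640 in wild-type mice (-0.71 ± 0.081 and -0.71 ± 0.081). The water channel gene Aqp4 was at 113 to 153 CPM in R6/2 mice, 219 to 249 in vehicle mice and 199 to 230 in wild-type mice (-0.81 and -0.66). The glutamate transporter gene Slc1a3 was lower by less than the limit (-0.44 and -0.42). Of 20 oligodendrocyte and myelin genes 4 were kept as lower, and 12 were lower and none higher than both controls. Against vehicle 1 was higher, Myrf (0.96, but -0.29 against wild type). Against wild type 1 was higher, Mog (0.17, but -0.26 against vehicle). Both were named after their values were seen. Mobp, a myelin protein, was at 164 to 211 CPM in R6/2 mice, 336 to 369 in vehicle mice and 266 to 357 in wild-type mice. The tetraspanin Tspan2 (-0.86 and -0.63, not kept with library totals or FPKM) and the protease Klk6 (-1.90 and -2.50) were kept too, while Mal was lower without being kept (-1.41 and -0.77). With wild-type replicate 1 as the lone wild-type library 2 astrocyte and 1 oligodendrocyte genes were kept, and Glul, Mobp, Tspan2 and Klk6 were not among them. Genes of oligodendrocyte precursors were not kept in either direction (0 of 10, while 1 was lower and 2 were higher than both controls), with Olig1 (0.39 and 0.35) and Enpp6 (0.60 and 0.91) above all controls. Of 16 endothelial and mural genes none was kept, and 3 passed as lower against both, near the 18.4% of all genes. The smooth muscle gene Tagln (-2.50 and -1.47) was among them and fell far more than the list. The list had medians of -0.38 against vehicle, -0.15 against wild type and -0.27 against wild-type replicate 1 alone. Of 10 ependymal and choroid plexus genes 2 were kept as lower, and of the nuclear noncoding RNAs none of 6.

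The lowest values of all were in immune genes. Of the 16 interferon response genes 14 were kept as lower, of the 18 microglial genes 16 and of the 17 reactive astrocyte genes 6, none as higher. Of all genes 7.8% were kept as lower. A further 5 lists were added after their values were seen (MHC class I, MHC class II, T and natural killer cells, B and plasma cells, monocytes and dendritic cells). With them 71 of 90 genes were kept as lower and none as higher. Since these lists were chosen by their values, that count cannot be set against the share of all genes. C1qa, a complement component made by microglia, was at 46.4, 46.1, 44.9 and 37.7 CPM in R6/2 mice, 153 to 226 in vehicle mice and 103 to 245 in wild-type mice (-2.10 ± 0.21 and -2.12 ± 0.21). C1qb, C1qc, the protease Ctss, the integrin Itgam and the fractalkine receptor gene Cx3cr1 followed, with log2 fold changes from -0.92 (Cx3cr1 against wild type) to -2.44 (C1qc against wild type), and Cx3cr1 was no longer kept without wild-type replicate 1. B2m, the light chain of MHC class I, was at 65.9, 79.4, 85.4 and 55.5 CPM in R6/2 mice, 478 to 910 in vehicle mice and 726, 685, 304 and 864 in wild-type mice. Cd74, the MHC class II invariant chain, was at 3.82, 9.13, 5.69 and 5.38 CPM in R6/2 mice, 165, 365, 161 and 197 in vehicle mice and 338, 238, 52.5 and 434 in wild-type mice. In C1qa, B2m and Cd74 the lowest control was wild-type replicate 3, still above every R6/2 library. With wild-type replicate 1 as the lone wild-type library, 14 microglial and 13 interferon response genes were kept.

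Interferon-induced genes had the same shape. Ifit1 was at 8.38, 6.13, 10.5 and 4.84 CPM in R6/2 mice, 34.9 to 79.5 in vehicle mice and 28.1 to 77.1 in wild-type mice (-3.09 ± 0.36 and -2.93 ± 0.36). Oasl2 (-3.49 and -3.58), Isg15 (-3.80 and -4.04) and Bst2 (-3.74 and -3.98) followed. Gfap, the filament of reactive astrocytes, was at 142, 110, 136 and 114 CPM in R6/2 mice, 295 to 413 in vehicle mice and 259 to 494 in wild-type mice (-1.45 ± 0.18 and -1.76 ± 0.18). The complement genes C3 (-4.16 and -5.03) and C4b (-2.39 and -3.24) and the cytokine receptor gene Osmr (-1.08 and -1.20) were kept as lower. Of the 17 reactive astrocyte genes 12 were lower than both controls (18.4% of all genes were) and none higher. Serpina3n (-1.10 and -2.49) and Cd44 (-0.94 and -1.66) were lower without being kept. S1pr3 against vehicle (0.24) and Hspb1 against wild type (0.04) were not called. These members were named after their values were seen. Lymphocyte transcripts were present in control brains, with Cd3g of the T cell receptor complex at 1.13 to 2.87 CPM in vehicle mice and 1.01 to 6.44 in wild-type mice, and at 0.0335 to 0.0841 (5 reads in all 4 libraries) in R6/2 mice. The natural killer and T cell receptor gene Il2rb was at 0.0735 to 0.402 CPM in R6/2 mice, 4.55 to 6.39 in vehicle mice and 2.28 to 10.4 in wild-type mice, and the dendritic cell integrin Itgax at 0.505 to 0.845, 6.34 to 12.5 and 3.83 to 15.1 in the same order. B2m, H2-K1, Cd74, Cd3g, Il2rb and Itgax were singled out after their values were seen.

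The 15 largest falls, by the smaller of both fold changes among genes of an average log2 CPM of at least 1, held 5 genes of the immune lists. They included the chemokines Ccl5, Cxcl10 and Cxcl13, the MHC class II genes H2-Ab1, H2-Aa and H2-Eb1, the serpins Serpina3f and Serpina3g, the complement factor Cfb, the interferon-induced Oas3 and Gbp8, the monocyte antigen Ly6c2, Ms4a4c, and Irg1, whose enzyme makes itaconate in macrophages. H2-Aa was at 1.73, 3.30, 2.24 and 1.81 CPM in R6/2 mice, 61.8 to 169 in vehicle mice and 24.6 to 189 in wild-type mice (-5.39 ± 0.63 and -5.75 ± 0.64). Ccl5 had 6 reads in the 4 R6/2 libraries together, against 947 in vehicle and 833 in wild-type mice. Reads in R6/2 mice were as few as 3 for Serpina3f and Irg1, too few for a fold. The remaining gene, Gpx6, a glutathione peroxidase, had 0.11, 0, 0.167 and 0 CPM in R6/2 mice (8 reads), 4.66 to 4.98 in vehicle mice and 2.01 to 4.12 in wild-type mice (-5.89 ± 0.42 and -5.26 ± 0.44).

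Rpl22, the gene that the tagging virus carried, was lower in R6/2 mice than in vehicle mice. It was at 124, 101, 119 and 132 CPM in R6/2 mice, 272, 370, 379 and 314 in vehicle mice and 194, 245, 130 and 153 in wild-type mice, so the R6/2 group was below all vehicle libraries and overlapped with wild type (-1.49 ± 0.17 with an adjusted p of 8.27e-06, and -0.60 ± 0.17 with 0.00844). Rpl22 was singled out after its values were seen. The summed level of the 7 MHC class II genes was 21.1 to 29.8 CPM in R6/2, 365 to 843 in vehicle and 136 to 967 in wild-type mice. That of the 5 tested B and plasma cell genes was 1.29 to 4.82, against 70.9 to 199 in vehicle and 16.2 to 189 in wild-type mice, and that of the 12 T and natural killer cell genes 3.74 to 4.76, against 16.0 to 26.8 and 10.8 to 50. Among wild-type mice, replicate 3 was lowest in Rpl22 and in summed MHC class II (136), while replicate 4, at 153 for Rpl22, had the highest sum (967). In the 12 input libraries described below, Rpl22 was at 89.4 to 103 CPM in R6/2 + hM4Di, 314 to 459 in MPTP and 118 to 142 in SAPAP3 knockout mice. B2m was at 95.3 to 271, 530 to 1190 and 471 to 632 in the same order. Any part of the Rpl22 level in the low immune levels was not tested, and genotype and experiment cannot be told apart there either.

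**Figure D4:**
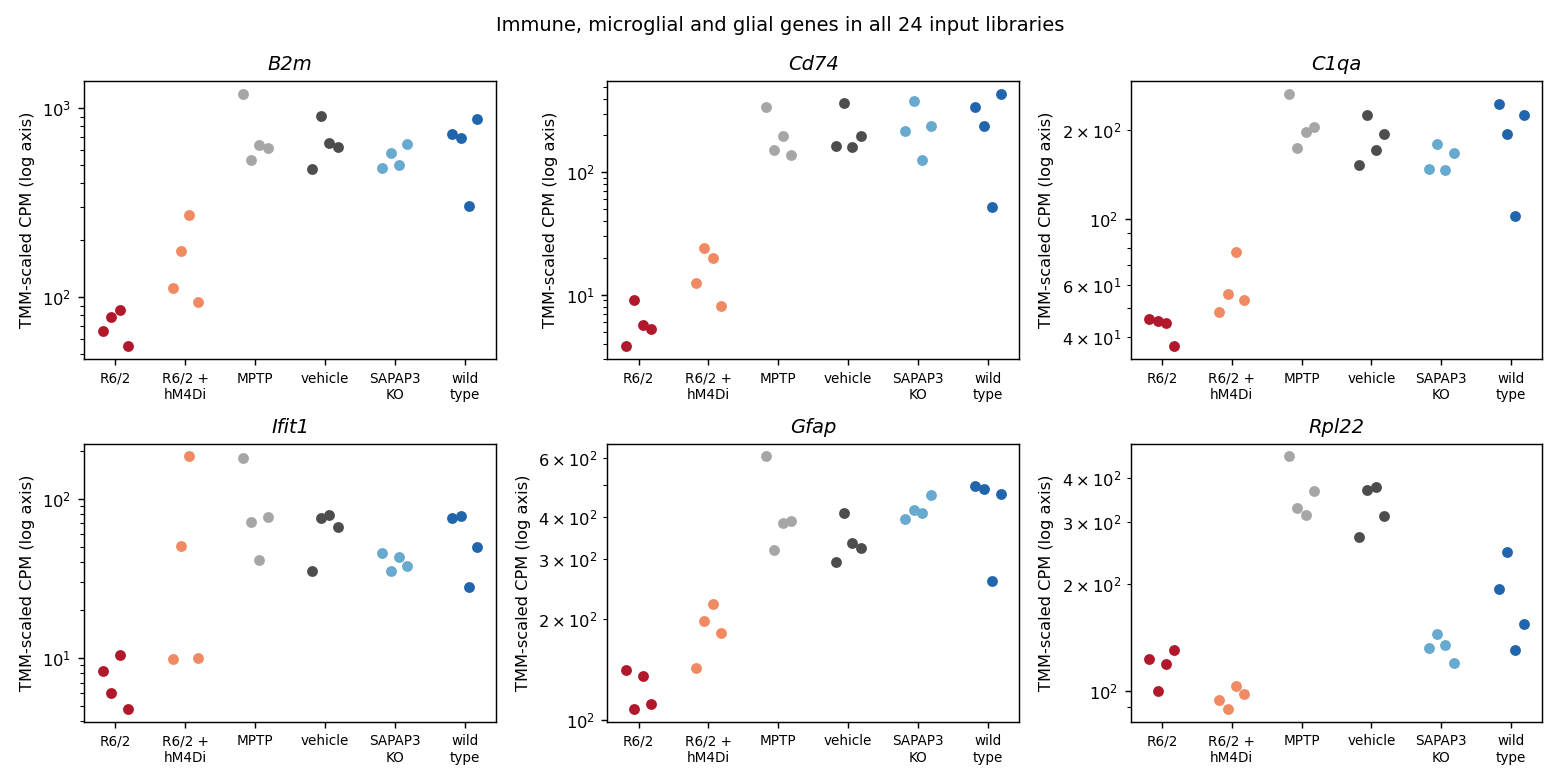
TMM-scaled CPM (log axis) of 5 immune or glial genes and Rpl22 in all 24 input libraries, 4 per group. Both R6/2 groups lie lowest in B2m, Cd74, C1qa and Gfap, R6/2 + hM4Di replicates 2 and 3 reach the levels of the other groups in Ifit1, and Rpl22 is highest in MPTP and vehicle mice, which share 1 experiment.

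Rises were smaller than falls. The median of the smaller fold change was 0.732 over the 499 kept rises and 1.33 over the 1228 kept falls, and it was at least 2 on the log2 scale in 17 rises and 365 falls. Several of the largest rises were of genes hardly read in controls. Tmc3, a channel-like membrane protein, was at 7.90, 8.71, 8.41 and 7.36 CPM in R6/2 mice, 0.463 to 0.641 in vehicle mice and 0.75 to 1.51 in wild-type mice (3.84 ± 0.20 and 2.81 ± 0.18). Sfmbt2, a polycomb group protein, was at 24.8, 24.2, 29.0 and 29.4 CPM in R6/2 mice, 4.70 to 7.26 in vehicle mice and 5.49 to 6.91 in wild-type mice (2.10 ± 0.13 and 2.10 ± 0.13). Both were even across R6/2 mice. Others varied widely among the 4 R6/2 mice. Dnah6, a dynein heavy chain of cilia, was at 83.4, 9.26, 43.7 and 64.8 CPM in R6/2 mice, 3.81 to 6.52 in vehicle mice and 4.46 to 5.17 in wild-type mice (3.39 ± 0.48 and 3.39 ± 0.48). Baiap2l1, an adaptor between membrane and actin, was at 29.9, 1.73, 1.78 and 3.70 CPM in R6/2 mice and at 0.134 to 0.416 over the 8 controls' libraries. R6/2 replicate 1 was far above the other 3 R6/2 libraries, but Baiap2l1 was still kept when that library was left out. It was not kept against wild-type replicate 1 alone.

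The sodium channel gene Scn9a was at 26.2 to 34.5 CPM in R6/2 mice, 7.91 to 9.86 in vehicle mice and 8.85 to 13.4 in wild-type mice (1.81 ± 0.12 and 1.49 ± 0.12). The potassium channel gene Kcnh8 (1.40 and 1.78), the matrix genes Col9a2 (1.69 and 1.70) and Smoc1 (1.86 and 1.56), Fam196b (1.63 and 1.88), N4bp2 (1.60 and 1.40), the retinol dehydrogenase Rdh12 (1.29 and 1.41), Igsf3 (1.37 and 1.27), the RNA-binding Mex3a (1.26 and 1.36), the ADP-ribose hydrolase Macrod1 (1.57 and 1.25) and the lipid droplet protein Plin4 (1.48 and 1.37) completed the 15 largest. Developmental transcription factors, regulators of embryonic patterning, were mostly under the filter on low counts, with 11 of 39 tested. Of these, 2 were kept as higher (3.17% of all genes were) and none as lower. Wt1 was at 2.06, 1.39, 2.18 and 1.51 CPM in R6/2 mice (190 reads), 0.0523 to 0.116 in vehicle mice and 0.0429 to 0.243 in wild-type mice. Irx5 was at 0.737 to 1.01 CPM in R6/2 mice, 0.0785 to 0.637 in vehicle mice and 0.112 to 0.30 in wild-type mice. Both had few reads, and Irx5 was not kept without vehicle replicate 4. Onecut2 passed against both controls (1.42 and 0.45), but its R6/2 libraries overlapped with wild type.

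Genes known to differ between inbred strains varied within the R6/2 group in part. Gabra2, a GABA-A receptor subunit, was at 37.0, 38.6, 69.7 and 69.5 CPM in R6/2 mice, 117 to 130 in vehicle mice and 26.0 to 35.8 in wild-type mice. Alad, of heme synthesis, was at 24.8, 25.9, 49.7 and 69.9 CPM in R6/2 mice, 23.8 to 25.7 in vehicle mice and 21.9 to 26.1 in wild-type mice. The endosomal protein Wdfy1 was at 29.6, 57.2, 55.4 and 33.6 CPM in R6/2 mice, 77.4 to 83.7 in vehicle mice and 24.8 to 32.8 in wild-type mice, and the mitochondrial transhydrogenase Nnt at 33.1 to 58.5, 60.4 to 65.4 and 30.9 to 35.1 in the same order. The healthy groups also differed from each other in Gabra2, Wdfy1 and Nnt. Of these 10 genes, the glyoxalase Glo1 was kept as higher (0.65 and 0.76) and the securin Pttg1 as lower (-1.17 and -1.28). Of all genes 3.17% were kept as higher and 7.8% as lower. The part of genetic background in the kept genes was not tested.

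The kept genes were then read in 12 input libraries that their choice had not used, 4 each of R6/2 mice with hM4Di (a designer receptor that signals through Gi), of MPTP mice (20 mg/kg, 4 doses, of a toxin to dopamine neurons, given into the striatum per the labels) and of SAPAP3 knockout mice, which lack the scaffold gene Dlgap3. These come from the same 3 experiments, each group carries a perturbation, and genotype and experiment coincide here too. Of 1215 kept falls tested there, 1030 were lower in R6/2 + hM4Di mice than in both other groups (84.8%), against 17.3% of all genes. Of 489 kept rises, 429 were higher than both (87.7%), against 17.6% of all genes. Median log2 fold changes of the falls were -1.18 and -1.07, where the first comparison had -1.42 and -1.45, and of the rises 0.746 and 0.781, where it had 0.819 and 0.781. SAPAP3 knockout libraries were as rich in cortical RNA as wild-type replicates 2 to 4, with Slc17a7 at 559 to 697 CPM, against 11.7 to 58.2 in R6/2 + hM4Di mice.

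Of the genes shared by medium spiny neurons 18 of 34 were lower in R6/2 + hM4Di mice than in both other groups, of indirect-pathway genes 7 of 8 and of direct-pathway genes 1 of 9, with 4 of those 9 higher. Of all genes 17.3% were lower than both and 17.6% higher. Of the kept genes of these lists Dlgap3 did not pass in both and Chrm4 was higher than in both. Pde10a was at 806, 838, 733 and 738 CPM in R6/2 + hM4Di mice, 2560 to 2790 in MPTP mice and 1620 to 1780 in SAPAP3 knockout mice. Penk was at 323, 341, 323 and 327 CPM in R6/2 + hM4Di mice, 1290 to 1360 in MPTP mice and 747 to 859 in SAPAP3 knockout mice. Drd2 (-1.51 and -0.51) and Ppp1r1b (-1.67 and -0.73) passed against both as well. Gm12695 was at 5.20 to 6.66 CPM in R6/2 + hM4Di mice and at most 0.231 in the 8 others. Of the interferon response genes 3 of 16 were lower than both, near the 17.3% of all genes. Ifit1 was at 9.92, 50.9, 184 and 10.1 CPM in R6/2 + hM4Di mice, 40.8 to 179 in MPTP mice and 34.3 to 44.5 in SAPAP3 knockout mice, and neither comparison passed (adjusted p = 0.538 and 0.418). Oasl2 and Isg15 did not pass either. Cd74 remained low, at 8.24 to 24.4 CPM, against 138 to 341 and 124 to 375. Among the activity-induced genes Egr1 (-0.68 and -1.21) and Dusp6 (-1.11 and -0.74) passed in both, while Arc (adjusted p = 0.159 and 0.362) and Nr4a1 (0.216 and 0.585) passed in neither. Replicate 2 of the R6/2 + hM4Di mice stood apart in both genes. Arc was at 44.5, 258, 57.6 and 60 CPM in R6/2 + hM4Di mice, 124 to 249 in MPTP mice and 118 to 190 in SAPAP3 knockout mice. Nr4a1 was at 16.8, 79.1, 16.6 and 20.4 CPM, against 36.6 to 66.6 and 30.6 to 52.7. Plin4, 1 of the 15 largest rises, was at -0.19 and -0.61 and passed in neither. Dlgap3, the gene knocked out in SAPAP3 mice, was lower than in MPTP mice (-0.65) and higher than in those knockouts (0.68).

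**Figure D5:**
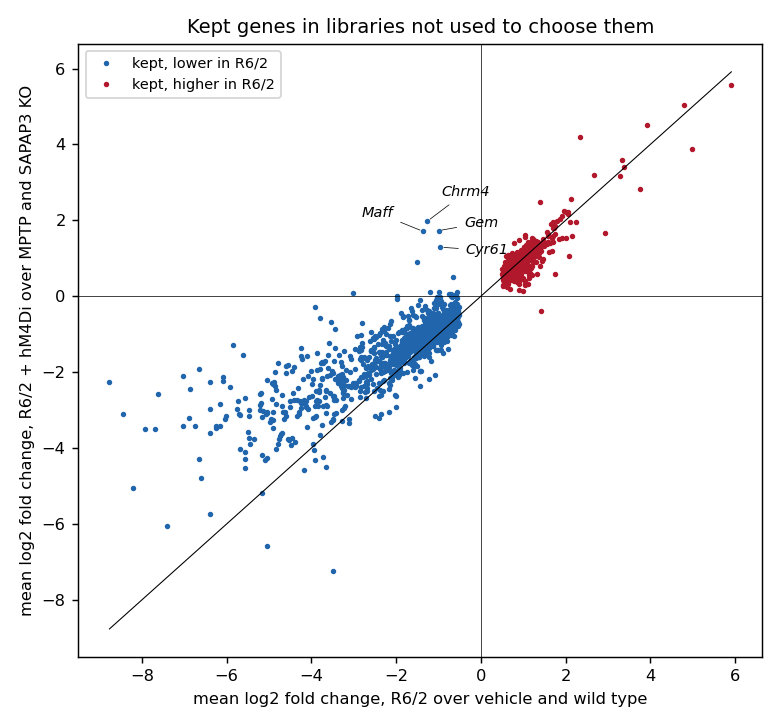
Mean log2 fold change of kept genes in the 12 libraries used to choose them (x axis, R6/2 over vehicle and wild type) and in 12 others (y axis, R6/2 + hM4Di over MPTP and SAPAP3 KO). Most kept falls and rises keep their sign on both axes, many of the largest falls are smaller on the y axis, and Chrm4, Cyr61, Gem and Maff lie on the opposite side.

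Around the 0.5 limit on the fold change, the nearest kept genes were Rps6kb2 (0.61 and 0.50) and Psen2 (0.73 and 0.50), and the nearest left out were Ccdc51 (0.50 and 0.61) and Il11ra1 (-0.55 and -0.50), all rounded. Requiring a log2 fold change of 1 left 812 falls and 128 rises. Unscaled library totals in place of TMM shifted the median of all genes to 0.129 against vehicle and 0.149 against wild type, against 0.001 and 0.008, and turned the kept genes into 961 falls and 964 rises (50.1% higher, against 28.9%). Against vehicle the called genes were then 65.2% higher, against 49.8%, and against wild type 67.8%, against 49.5%. Of the rises and falls named above, Plin4, Irx5, C4b and Gm12695 were also not kept with wild-type replicate 1 as the lone wild-type library.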

How the data were processed

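RNA of striatal input was sequenced after ribosomal RNA removal with a strand-keeping kit, per the labels' protocols. STAR, HTSeq and the mm10 build are named in the submitters' processing notes; versions, annotation and settings are not given in the sources used here. The deposited table holds read counts per gene symbol, and symbols that occur more than 1 time (4 lines) were kept as separate entries. The deposited FPKM values equalled count over length and column total in all 20369 genes checked, and served for alternatives only.

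The 12 libraries were fitted together in edgeR 4.0.16 (R 4.3.3) with filterByExpr (minimum count 10), TMM scaling and the quasi-likelihood F test, with Benjamini-Hochberg adjustment over 15751 genes. The 12 held-out libraries were fitted the same way over 15812 genes. The script was tested on simulated counts. The series description gives 24 mice, but no litters or days, so the p-values measure the spread between these mice. Same-numbered libraries of the groups had residual correlations of -0.147 to 0.259 (4 of 12 above 0.1), so the numbers do not pair them.

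Members and lists were chosen with earlier results of these data known. Of 439 list entries 1 was matched through a RefSeq synonym (Drd1, listed as Drd1a). Genes named in the text are the 4 markers, the 15 largest falls and rises among kept genes (average log2 CPM of at least 1, gene models without a descriptive symbol skipped), up to 6 members of each list by the larger of the p-values, any member of the medium spiny neuron lists and the genes nearest the 0.5 limit, and others are said to have been singled out. Alternatives covered scaling, filters, DESeq2 1.42.0, limma 3.58.1 (voom on counts, and trend on log2 FPKM after adding 1 or 0.1), the samples in the fit, the replicate block, Xist as a covariate, the limits of the rule, each library left out, and, added after seeing the data, wild-type replicate 1 alone. Results on items withheld here are not reported.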

Additional observations from a re-analysis of the deposited data

Results flagged for a closer look

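Where 1 library of a group of 4 stood apart, the number given is its gap to the nearest library of the group as a share of the group's range. Of 461 groups of 4 tested, 33 passed Dixon's 95% limit, as about 1 in 20 groups do by chance. Wild-type replicate 1 stood above the other wild-type libraries in Adora2a (0.922), Scn4b (0.92), Rasgrp2 (0.851), Adcy5 (0.919), Dlgap3 (0.882), Tac1 (0.848), Kcnip2 (0.944) and Pde1b (0.849). It stood below them in Htr2a (0.948), Gadd45a (0.978), the cortical excitatory neuron list (0.92) and the pan-neuronal list (0.908). Wild-type replicate 3 was low in Gfap (0.881), Gbp8 (0.892) and the MHC class I list (0.928).

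Among R6/2 mice, replicate 1 was high in Baiap2l1 (0.93), and replicate 2 in H2-Ab1 (0.953), H2-Eb1 (0.913), the MHC class II list (0.841) and the heat shock list (0.876). Replicate 3 was high in Egr1 (0.884), Hmgcs1 (0.934) and Nnt (0.845), and replicate 4 in Homer1 (0.963) and Chat (0.868). Among vehicle mice, replicate 2 was low in Isl1 (0.838) and Mobp (0.876) and high in Plin4 (0.874), Itgam (0.858) and the T and natural killer cell list (0.977). Vehicle replicate 4 was high in Mex3a (0.876) and Gem (0.854), and vehicle replicate 1 in the nuclear noncoding RNA list (0.862).

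In 4 kept falls R6/2 + hM4Di mice ran the other way, a difference that was not tested. Chrm4, the mouse M4 receptor gene, was at 457, 338, 520 and 480 CPM in R6/2 + hM4Di mice, 137 to 151 in MPTP mice and 82.5 to 98.8 in SAPAP3 knockout mice (log2 fold changes of 1.64 and 2.31). hM4Di derives from the human counterpart of Chrm4, and whether its reads were counted there was not tested. Cyr61 (1.29 and 1.30), Gem (1.51 and 1.95) and Maff (1.57 and 1.84) were also higher than in both.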

How the results depend on the processing

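The counts of kept falls and rises stayed within 1.5 times of 1228 and 499 under RLE and upper-quartile scaling, DESeq2, voom, both filters, other samples in the fit, Xist as a covariate and the other limits tried, and leaving out 1 library gave 1169 to 1349 falls and 475 to 529 rises. Library totals alone gave 964 rises, 890 of which passed in the held-out libraries. With FPKM, log2(FPKM + 1) gave 649 falls (571 held out) and log2(FPKM + 0.1) 881 rises (824 held out). A minimum log2 fold change of 1 gave 812 falls and 128 rises by construction. With wild-type replicate 1 alone, wild type and vehicle differed in 3423 genes, where fewer samples were tested, and 1255 of the 1727 genes remained among 1860 kept. The replicate block, whose numbers do not pair the groups, gave 1231 falls and 489 rises, with 1702 genes shared.

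Of 6860 values of named genes under alternatives, 13 changed sign, and the cause was not tested. Htt against wild type was at -0.00146 (RLE), -0.00152 (DESeq2) and -0.000396 (Xist covariate), and at -0.0325 to 0.0455 with 1 library left out. Under library totals, log2(FPKM + 1) and log2(FPKM + 0.1), Foxp2 against vehicle was at 0.0324, 0.0305 and 0.0318 and Gad1 against wild type at 0.0452, 0.0438 and 0.044. Tac1, at 0.50 and called higher against all wild-type libraries, was at -0.0922 against wild-type replicate 1 alone. Depth limits genes with few reads in R6/2 mice, such as Serpina3f and Irg1.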
